A study of Mus musculus with 24 samples.

Results

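Collagen leaves the cell as a helix whose proline and lysine residues have been hydroxylated, and is then tied into fibres by oxidised lysines, and the genes for the enzymes of both steps were followed here in mouse ovarian surface epithelial (mOSE) cells. The members are 10 genes chosen by name from the deposited gene tables: the lysyl oxidases Lox, Loxl1, Loxl2, Loxl3 and Loxl4, the lysyl hydroxylases Plod1, Plod2 and Plod3, and the catalytic subunits P4ha1 and P4ha2 of collagen prolyl 4-hydroxylase. All 10 had a row in each of 3 tables, among 35687 gene rows in the table of monolayers and spheroids and 35688 in each of the others. In each of these, 9 of the 10 reached the level needed for testing, at least 1 scaled TPM in at least 3 libraries, and Loxl4 did not.

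Prolyl 4-hydroxylases act on procollagen chains in the endoplasmic reticulum, where hydroxyproline stabilises the triple helix. The Plod enzymes hydroxylate lysines of the same chains, and Plod2 is known for acting on the telopeptide lysines that set the chemistry of the later crosslinks. Both kinds need oxygen, iron, oxoglutarate and vitamin C. Lysyl oxidases are copper enzymes that act outside the cell, oxidising lysine and hydroxylysine so that fibrillar collagen and elastin can be crosslinked. In the ovary a collagen-rich layer, the tunica albuginea, lies directly under the surface epithelium. Lox is a known TGF-beta responsive gene, and P4ha1, P4ha2, Plod2 and Lox are known targets of hypoxia-inducible factors.

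The study measured poly(A) RNA of cultured cells in 24 libraries, 8 groups of 3, in 3 experiments. In the first, line m1102 was grown attached (monolayer) or, in low-attachment culture, as spheroids, each without treatment or with TGFB1 at 10 ng/mL. For spheroids TGFB1 was given for 4 days before the low-attachment culture. Its duration in monolayers is not given in the sources used here. Where TGFB1 spheroids or their response are compared with monolayers, culture form and the timing of TGFB1 therefore cannot be told apart. In the second, m1102 cells carried the WPI lentiviral vector, either empty or with Snail, the repressor of epithelial genes encoded by Snai1. In the third, cells of BRCA1 fl/fl mice (line mOSE_BRCA1_fl, so both groups began with the floxed allele) received adenovirus for Cre (labelled BRCA1_ko) or for GFP (labelled BRCA1_wt). The labels do not say whether the 3 libraries of a group came from separate cultures, so the p-values speak for the spread among these libraries only, and that spread may be technical.

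Some features of the libraries touch every result below. The titles of all 6 monolayer libraries, and of no spheroid library, say that they were re-analysed from earlier work, so culture form and library origin cannot be told apart. Libraries of the first experiment summed to between 955433 and 1166749 scaled TPM, those with Snail or vector to between 983449 and 1021026, and those of the BRCA1 experiment to between 796668 and 1810667; read depth is unknown. Untreated monolayer 1 and untreated monolayer 2 are described as coming from 1 and the same previous sample, but the levels in these libraries differed as much as those of the other pairs in the group (r = 0.991 across genes, against 0.992 and 0.993). They were kept as separate libraries, and if they share a culture the untreated monolayers hold fewer than 3 independent samples and p-values against them are too small. Untreated spheroid 3 stood apart from the other libraries of its group (r = 0.970 with each, against 0.991 between those). In the BRCA1 experiment the library labelled BRCA1_wt 2 correlated with the 3 labelled BRCA1_ko at 0.923 to 0.935 (Pearson, across genes, which are not independent replicates) and with the other libraries labelled BRCA1_wt at 0.866 to 0.917.

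The surface epithelial label was checked against 10 marker genes. Their summed level was 2076 to 2187 scaled TPM in untreated monolayers, 1133 to 1466 in TGFB1 monolayers, 243 to 401 in untreated spheroids and 226 to 438 in TGFB1 spheroids. Krt7 averaged 329 scaled TPM in untreated monolayers and 2.69 in untreated spheroids, and the mean of Krt8 was below 1 in every group of the first and second experiments. Over the same 4 groups in the same order, 6 fibroblast markers summed to 1511 to 1716, 683 to 717, 301 to 338 and 432 to 1091. The 4 endothelial markers summed to 1.01 to 1.20, 1.67 to 1.82, 1.86 to 6.05 and 25.7 to 52.4, nearly all of it Cdh5 in TGFB1 spheroids, with Kdr and Tie1 below 1. Of 5 leukocyte markers only Cd68 averaged 1 or more, and the 4 granulosa markers ranged from 30.3 to 66.6 with Fshr at 0 in every group. The part of these markers in the enzyme results was not tested; in bulk samples fewer cells of a type and less RNA per cell cannot be told apart.

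The promoters of members that rose in untreated spheroids are shown because the rise was shared by hydroxylases of both families. RefSeq (GRCm38.p6) gave a promoter for 5 of the 10 members, and 4 of these, P4ha1, P4ha2, Plod1 and Plod3, rose there. The windows are the 250 bases before the RefSeq start site: P4ha1 at chr10:59323046-59323295 (plus strand), P4ha2 at chr11:54100674-54100923 (plus), Plod1 at chr4:147936777-147937026 (minus) and Plod3 at chr5:136986769-136987018 (plus). The P4ha2 window lies inside the gene as GENCODE gives it, from 54100095, so the 2 annotations place its start differently. Capitals mark ACGTG, the core of the hypoxia response element, which in P4ha1 lies on the opposite strand and so reads CACGT.
P4ha1: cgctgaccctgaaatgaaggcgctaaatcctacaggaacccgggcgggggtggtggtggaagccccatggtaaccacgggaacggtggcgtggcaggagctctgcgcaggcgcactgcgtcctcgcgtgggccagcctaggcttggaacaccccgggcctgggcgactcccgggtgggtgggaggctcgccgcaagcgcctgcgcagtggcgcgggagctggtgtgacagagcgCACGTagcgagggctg
P4ha2: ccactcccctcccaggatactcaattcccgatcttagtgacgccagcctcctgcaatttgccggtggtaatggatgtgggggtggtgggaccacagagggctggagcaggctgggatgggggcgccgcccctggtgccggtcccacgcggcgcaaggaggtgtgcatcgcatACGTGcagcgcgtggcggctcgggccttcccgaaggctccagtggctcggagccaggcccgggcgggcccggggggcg
Plod1: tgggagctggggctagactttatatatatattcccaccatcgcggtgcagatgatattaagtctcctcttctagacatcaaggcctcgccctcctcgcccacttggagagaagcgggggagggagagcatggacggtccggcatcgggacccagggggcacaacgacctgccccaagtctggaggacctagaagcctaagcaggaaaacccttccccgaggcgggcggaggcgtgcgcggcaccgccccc
Plod3: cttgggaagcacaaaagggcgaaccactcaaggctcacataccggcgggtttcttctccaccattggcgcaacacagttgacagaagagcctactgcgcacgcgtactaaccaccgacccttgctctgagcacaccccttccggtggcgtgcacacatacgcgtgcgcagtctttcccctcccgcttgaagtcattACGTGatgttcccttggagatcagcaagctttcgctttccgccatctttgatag

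ACGTG was searched on both strands and lay 16 bases before the RefSeq start in P4ha1, 78 in P4ha2 and 54 in Plod3. It was not found in the windows of Plod1 and Loxl4. Of 32851 RefSeq promoter windows of that length, 16.6% hold it. CAGAC, a SMAD-binding sequence, was in Plod1 and Loxl4 and is in 42.2% of all windows. The Snail E-box CAGGTG (17.2% of all windows), the AP-1 site TGANTCA (6.75%) and the TEAD site GGAATG (12.6%) were in none of the 5. These matches are descriptions of letters only.

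Among the 9 tested members in untreated cells, 5 hydroxylases rose in spheroids relative to monolayers, 3 lysyl oxidases fell and Loxl3 did not pass (-0.01, adjusted p = 0.978, limma); 55.2% of all 13509 genes tested were called in that comparison (27.6% higher, 27.7% lower), so a high count is not particular to the members. With TGFB1 in both cultures, 3 members were higher (Plod1, Plod2 and P4ha2) and 4 lower (Lox, Loxl1, Loxl2 and Loxl3) in spheroids, against 51.9% of genes called (25.3% higher, 26.5% lower). Here and below this wording compares TGFB1 monolayers with spheroids whose TGFB1 was given before the low-attachment culture. TGFB1 raised 5 of 9 and lowered 0 in monolayers, where 16.9% of genes were called (9.12% higher, 7.79% lower). In spheroids it raised 2 and lowered 2, where 35.6% were called (18.8% higher, 16.8% lower). The test of the difference between the TGFB1 responses of spheroids and monolayers called 0 members higher and 2 lower, against 15.8% of genes (8.72% higher, 7.11% lower). The groups compared did not overlap for 8 of 9 members between untreated cultures (65.3% of all genes), 7 between TGFB1 cultures (59.4%), 6 with TGFB1 in monolayers (47.5%) and 5 with TGFB1 in spheroids (43.9%). Calls are adjusted p under 0.05 by limma with Benjamini-Hochberg adjustment over all tested genes, and log2 fold changes are on the log2(scaled TPM + 1) scale, which understates changes of low genes. The 4 comparisons share libraries pairwise, so their values are set side by side and not as independent results.

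**Figure D1:**
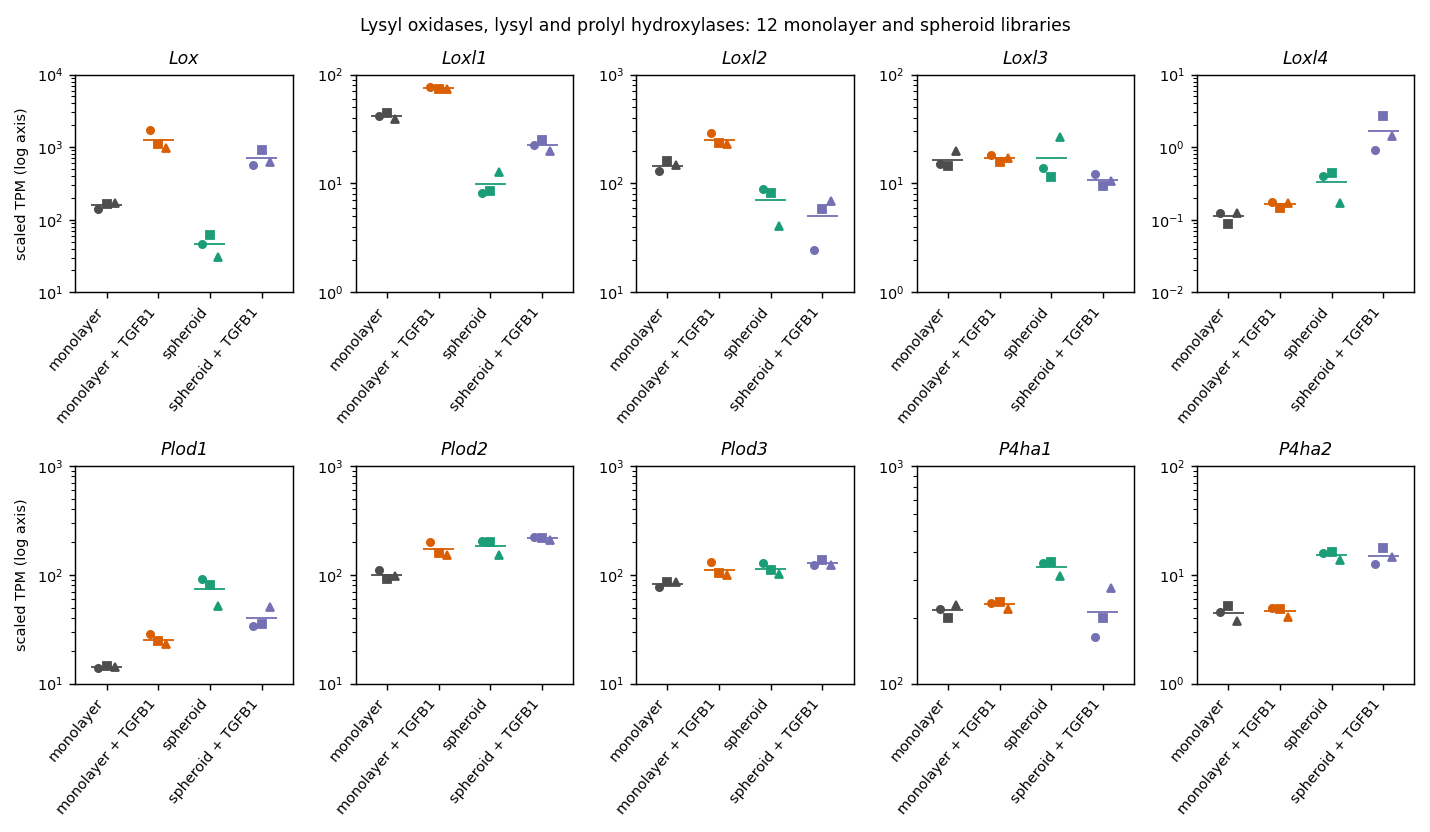
Scaled TPM of the 10 enzymes (log axis, range set per gene) in untreated and TGFB1-treated monolayers and spheroids; each point is a library (circle, square and triangle for libraries 1, 2 and 3) and the line is the mean of 3. Lox and Loxl1 are higher with TGFB1 in both cultures, and Plod1 is highest in untreated spheroids.

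Lox, the founding lysyl oxidase (chromosome 18, 52516067 to 52529867, minus strand, GRCm38), was the member that moved most with TGFB1. It was at 139, 166 and 173 scaled TPM in untreated monolayers and at 1736, 1093 and 981 with TGFB1. In spheroids it was at 46.1, 61.3 and 30.3 untreated and at 571, 903 and 619 with TGFB1. No 2 of the 4 groups overlapped, and the order was TGFB1 monolayers, TGFB1 spheroids, untreated monolayers, untreated spheroids. The log2 fold change with TGFB1 was 2.95 ± 0.27 (SE) in monolayers (adjusted p = 0.000129, limma) and 3.92 ± 0.27 in spheroids (adjusted p = 3.96e-06), and the difference between these responses, 0.98 ± 0.39, did not pass (adjusted p = 0.114). In untreated cells Lox fell by 1.82 ± 0.27 on the log2 scale in spheroids (adjusted p = 0.000225), and with TGFB1 by 0.85 ± 0.27 (adjusted p = 0.0231). The last call was lost without TGFB1 monolayer 1 (adjusted p = 0.0921) and without TGFB1 spheroid 1 (0.0752) or 3 (0.067).

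Loxl1, a lysyl oxidase linked to elastic fibres (chromosome 9, 58287738 to 58313186, minus strand), had 4 separate levels as well. Its values were 41.2, 44.3 and 39.3 scaled TPM in untreated monolayers and 76.8, 74.2 and 73.0 with TGFB1. In spheroids they were 8.21, 8.59 and 12.8 untreated and 22.6, 25.0 and 19.7 with TGFB1. Here every monolayer library lay above every spheroid library, unlike Lox, whose TGFB1 spheroids lay above the untreated monolayers. Loxl1 fell by 2.00 ± 0.14 on the log2 scale in untreated spheroids (adjusted p = 1.26e-06, limma) and by 1.70 ± 0.14 with TGFB1 in both cultures (adjusted p = 3.35e-06). TGFB1 raised it by 0.83 ± 0.14 in monolayers (adjusted p = 0.0033) and by 1.13 ± 0.14 in spheroids (adjusted p = 0.000229), a difference that did not pass (0.30, adjusted p = 0.352) but passed without untreated spheroid 3 (0.48, adjusted p = 0.0304).

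Loxl2, which is known to act on the type IV collagen of basement membranes (chromosome 14, 69609068 to 69695834, plus strand), was at 129, 161 and 148 scaled TPM in untreated monolayers and at 291, 236 and 228 with TGFB1. Spheroids had 88.4, 82.5 and 40.6 untreated and 24.6, 58.1 and 68.9 with TGFB1. The monolayer groups did not overlap and the spheroid groups did. With TGFB1 in both cultures Loxl2 was lower in spheroids by a log2 fold change of -2.41 ± 0.36 (adjusted p = 0.00023, limma), the largest spheroid difference of any tested lysyl oxidase. In untreated cells it fell by 1.11 ± 0.36 (adjusted p = 0.0219), and this call ended on leaving out untreated monolayer 2 (adjusted p = 0.0654), untreated monolayer 3 (0.0552) or untreated spheroid 3 (-0.76, 0.081). The TGFB1 change was 0.78 ± 0.36 in monolayers (adjusted p = 0.171; 0.00446 in a fit of the 6 monolayer libraries alone) and -0.52 ± 0.36 in spheroids (adjusted p = 0.287). The difference between these responses was -1.30 ± 0.51 (adjusted p = 0.111). It passed without untreated spheroid 3 (-1.65, adjusted p = 0.0309) and with the libraries scaled to the same sum (-1.52, adjusted p = 0.0475).

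Loxl3 (chromosome 6, 83034173 to 83052562, plus strand) stayed near one level. It was at 15.0, 14.5 and 19.8 scaled TPM in untreated monolayers and at 18.3, 15.8 and 17.1 with TGFB1. In spheroids it was at 13.7, 11.5 and 26.5 untreated and at 12.2, 9.40 and 10.5 with TGFB1. The first 3 of these groups overlapped with each other, and TGFB1 spheroids lay below both monolayer groups. Loxl3 was lower in TGFB1 spheroids than in TGFB1 monolayers (-0.63 ± 0.24, adjusted p = 0.0493, limma), but leaving out each of the 6 libraries compared ended this call: TGFB1 monolayer 1, 2 or 3 (adjusted p = 0.118, 0.0759 and 0.101) and TGFB1 spheroid 1, 2 or 3 (0.0521, 0.134 and 0.0982). The TGFB1 change in spheroids was -0.56 ± 0.24 (adjusted p = 0.0965). It passed without untreated spheroid 2 (-0.79, adjusted p = 0.0326) and with the libraries scaled to the same sum (-0.73, adjusted p = 0.0392). Htra2 overlaps Loxl3 on the opposite strand, and Znhit1 overlaps Plod3 in the same way; the library kit keeps strand, and whether the quantification used it is not given in the sources used here.

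Loxl4 (chromosome 19, 42593982 to 42612813, minus strand) was near 0 outside TGFB1 spheroids. Its values were 0.13, 0.09 and 0.12 scaled TPM in untreated monolayers, 0.17, 0.14 and 0.17 in TGFB1 monolayers and 0.40, 0.44 and 0.17 in untreated spheroids. TGFB1 spheroids had 0.92, 2.71 and 1.41, above all the other libraries. Because only 2 libraries reached 1, Loxl4 was not tested in the fits used elsewhere; in a fit with no filter on low values (25735 genes) its TGFB1 change in spheroids was 0.96 ± 0.19 (adjusted p = 0.00774, limma). In that fit it was also higher in TGFB1 spheroids than in TGFB1 monolayers (1.15 ± 0.19, adjusted p = 0.00142), opposite to the other lysyl oxidases. The untreated spheroid difference was 0.26 ± 0.19 (adjusted p = 0.373) and that between the TGFB1 responses 0.89 ± 0.27 (adjusted p = 0.0861, limma). At these levels the added 1 understates the changes. The authors' deposited log2 coefficients were 1.28 for spheroids, 0.50 for TGFB1 and 1.80 for their interaction (q-value 6.29e-05 for 3 terms at once).

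Within the lysyl oxidase family TGFB1 shifted the summed level toward Lox. TPM is per transcript length, so levels of different genes can be added within a library. The 5 genes summed to 364 ± 34.0 scaled TPM in untreated monolayers, 1614 ± 445 in TGFB1 monolayers, 144 ± 29.3 in untreated spheroids and 783 ± 192 in TGFB1 spheroids (SD, n = 3). Lox made up 43.8% ± 1.46 of that sum in untreated monolayers, 78.1% ± 3.28 with TGFB1, 31.4% ± 5.20 in untreated spheroids and 89.0% ± 2.56 with TGFB1. These 4 sets of shares did not overlap. As Lox grew in the sum with TGFB1, the shares of Loxl1, Loxl2 and Loxl3 were smaller in monolayers: 4.82% against 11.5% for Loxl1, 16.0% against 40.1% for Loxl2 and 1.10% against 4.54% for Loxl3. The level of Loxl2 was not lower in those monolayers, as given above.

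**Figure D2:**
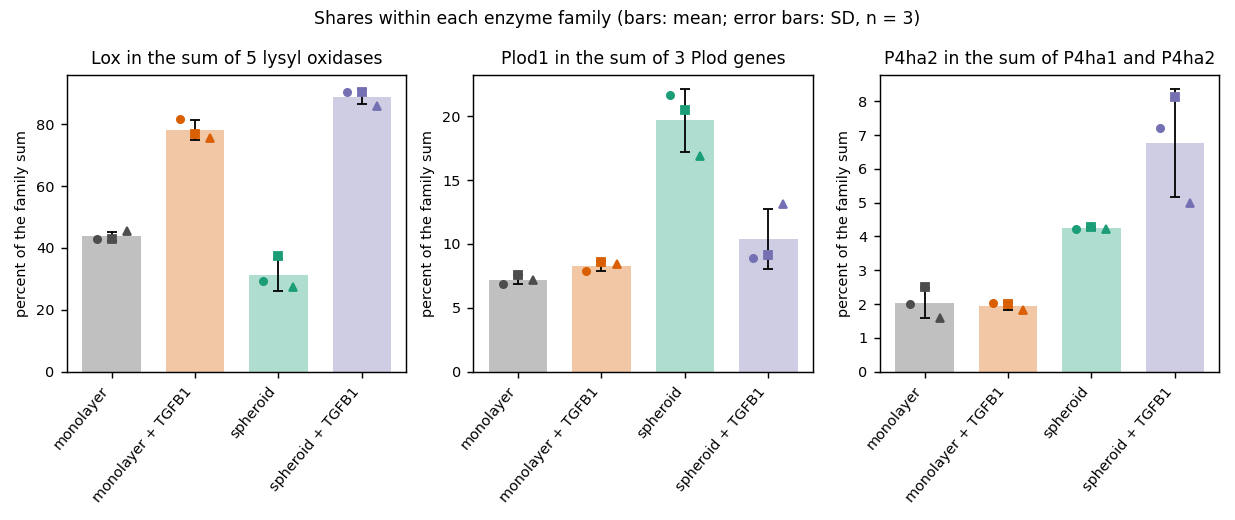
Share of Lox in the summed scaled TPM of 5 lysyl oxidases, of Plod1 in that of 3 Plod genes and of P4ha2 in that of P4ha1 and P4ha2 (percent, bars from 0), in 4 groups; points are libraries, bars the mean and error bars the SD (n = 3). The Lox share is 78.1% and 89.0% with TGFB1 against 43.8% and 31.4% without, and the Plod1 share is highest in untreated spheroids at 19.7%.

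Plod1 (chromosome 4, 147909753 to 147936767, minus strand), a lysyl hydroxylase of the helical part of collagen, responded to TGFB1 in opposite directions in the 2 cultures. It was at 13.9, 14.5 and 14.1 scaled TPM in untreated monolayers and at 28.4, 24.8 and 22.9 with TGFB1. Spheroid values were 92.1, 80.0 and 51.4 untreated and 33.7, 35.6 and 50.1 with TGFB1. No 2 of the 4 groups overlapped, although untreated spheroid 3 and TGFB1 spheroid 3 were nearly equal. TGFB1 raised Plod1 by 0.80 ± 0.20 on the log2 scale in monolayers (adjusted p = 0.0212, limma) and in spheroids it fell by 0.87 ± 0.20 (adjusted p = 0.00685; 0.0509 in a fit of the 6 spheroid libraries alone). The difference between the responses was -1.66 ± 0.28 (adjusted p = 0.00334) and was called in every fit without 1 library. The rise in untreated spheroids was 2.28 ± 0.20 (adjusted p = 5.31e-06), the largest of any member in that comparison.

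Some smaller Plod1 calls were lost in fits with 1 library left out. The call for the rise with TGFB1 in monolayers was lost without untreated monolayer 1, 2 or 3 (adjusted p = 0.0681, 0.0602 and 0.0661, limma). It was also lost without TGFB1 monolayer 1 or 2 (0.0849 and 0.0531). The log2 fold change in these fits was 0.71 to 0.81, near the 0.80 of the main fit. With TGFB1 in both cultures Plod1 was higher in spheroids by 0.61 ± 0.20 (adjusted p = 0.0242), which was lost without TGFB1 monolayer 2 or 3 (0.0619 and 0.0792) and without TGFB1 spheroid 3 (0.44, 0.0956). It was also lost when every library was scaled to the same sum (0.44, 0.0833).

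Plod2 (chromosome 9, 92542223 to 92608428, plus strand), the telopeptide lysyl hydroxylase, was lowest in untreated monolayers. It was at 109.8, 90.6 and 97.3 scaled TPM there and at 202, 159.9 and 150.4 in TGFB1 monolayers. Its spheroid values were 205, 199 and 151 untreated and 224, 218 and 209 with TGFB1. Untreated monolayers lay below all 9 other libraries, and TGFB1 monolayers overlapped with untreated spheroids. Plod2 rose by 0.77 ± 0.14 with TGFB1 in monolayers (adjusted p = 0.00382, limma) and by 0.88 ± 0.14 in untreated spheroids relative to untreated monolayers (adjusted p = 0.000266). In spheroids the TGFB1 change was 0.24 (adjusted p = 0.189). The difference between the TGFB1 responses, -0.53 ± 0.19 (adjusted p = 0.0878), passed without untreated spheroid 3 (-0.67, 0.019) and with the libraries scaled to the same sum (-0.75, 0.0229). With TGFB1 in both cultures Plod2 was higher in spheroids by 0.35 ± 0.14 (adjusted p = 0.0474), lost without TGFB1 monolayer 2 or 3 (0.132 and 0.165), without TGFB1 spheroid 1, 2 or 3 (0.103, 0.0951 and 0.0711) and at equal library sums (0.18, 0.302).

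Plod3 (chromosome 5, 136987019 to 136996648, plus strand), which also carries glycosyltransferase activity toward hydroxylysine, followed the order of Plod2 with smaller steps. It was at 77.9, 85.0 and 85.8 scaled TPM in untreated monolayers and at 132, 104 and 99.3 with TGFB1. In spheroids it was at 129, 111 and 102 untreated and at 122, 137 and 123 with TGFB1. Untreated monolayers again lay below all 9 other libraries, and neighbouring groups above them overlapped. It rose by 0.45 ± 0.12 in untreated spheroids (adjusted p = 0.0072, limma) and by 0.41 ± 0.12 with TGFB1 in monolayers (adjusted p = 0.0347). The second call was lost without untreated monolayer 1, 2 or 3 (0.116, 0.0794 and 0.0781) and without TGFB1 monolayer 1 or 2 (0.12 and 0.0531). With TGFB1 in both cultures the spheroid difference was 0.20 (adjusted p = 0.175), and it passed without TGFB1 monolayer 1 (0.32, 0.0263).

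The 3 Plod genes summed to 196 ± 5.77 scaled TPM in untreated monolayers, 308 ± 47.6 in TGFB1 monolayers, 373 ± 62.5 in untreated spheroids and 384 ± 5.45 in TGFB1 spheroids (SD, n = 3). Plod1 was the smallest part of that sum in each of the 4 groups. Its share was 7.21% ± 0.37 and 8.29% ± 0.39 in untreated and TGFB1 monolayers, 19.7% ± 2.48 in untreated spheroids and 10.4% ± 2.37 in TGFB1 spheroids. The shares of the 2 spheroid groups did not overlap.

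P4ha1 (chromosome 10, 59323296 to 59373304, plus strand), the main catalytic subunit of prolyl 4-hydroxylase in most cells, rose in untreated spheroids and fell in spheroids with TGFB1. It was at 221, 201 and 230.2 scaled TPM in untreated monolayers and at 236, 238 and 221 with TGFB1, which overlapped. The spheroid libraries had 359, 360.1 and 311 untreated and 163, 201 and 275 with TGFB1. Untreated spheroids lay above all 9 other libraries. The log2 fold change was 0.66 ± 0.15 in untreated spheroids against untreated monolayers (adjusted p = 0.0038, limma), and with TGFB1 P4ha1 fell by 0.72 ± 0.15 in spheroids (adjusted p = 0.00443). With TGFB1 in both cultures the spheroid difference was -0.15 (adjusted p = 0.426), and -0.35 without TGFB1 spheroid 3 (adjusted p = 0.0232).

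The difference between the TGFB1 responses of P4ha1 in spheroids and monolayers was -0.81 ± 0.22 (adjusted p = 0.0287, limma). This call was lost, at nearly the same size, without untreated monolayer 1, 2 or 3 (adjusted p = 0.0577, 0.0702 and 0.0509), TGFB1 monolayer 1, 2 or 3 (0.0548, 0.0656 and 0.0506), untreated spheroid 1 or 2 (0.0666 and 0.0654) and TGFB1 spheroid 2 (0.0688).

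P4ha2 (chromosome 11, 54100095 to 54131665, plus strand), the alternative catalytic subunit, changed with culture and not detectably with TGFB1. It was at 4.50, 5.15 and 3.74 scaled TPM in untreated monolayers and at 4.91, 4.82 and 4.09 with TGFB1. In spheroids it was at 15.8, 16.1 and 13.7 untreated and at 12.7, 17.8 and 14.4 with TGFB1. All 6 spheroid libraries lay above all 6 monolayer libraries, and the treated and untreated groups overlapped in both cultures. P4ha2 was higher in spheroids by 1.57 ± 0.14 on the log2 scale untreated (adjusted p = 6.48e-06, limma) and by 1.50 ± 0.14 with TGFB1 (adjusted p = 8.65e-06). The TGFB1 changes were 0.04 in monolayers (adjusted p = 0.892) and -0.03 in spheroids (adjusted p = 0.882). P4ha2 remained the lesser subunit, at 2.03% ± 0.45 of the sum of both genes in untreated monolayers, 4.24% ± 0.04 in untreated spheroids and 6.77% ± 1.61 in TGFB1 spheroids (SD, n = 3).

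**Figure D3:**
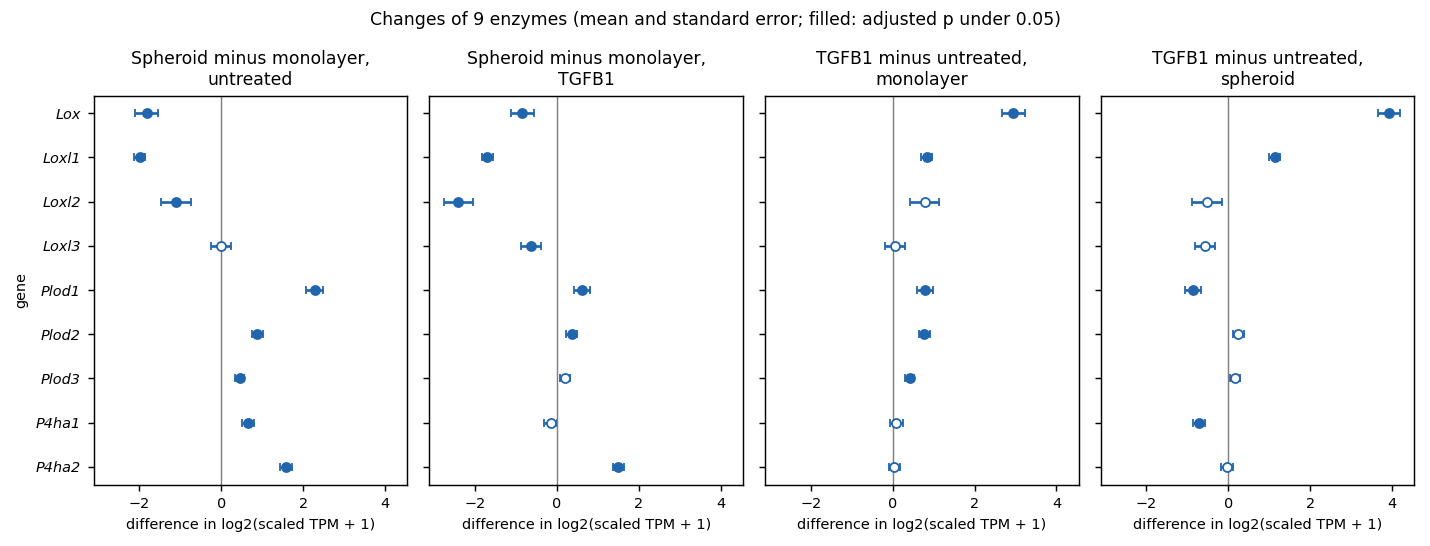
Differences in log2(scaled TPM + 1) of the 9 tested enzymes in 4 comparisons of culture and TGFB1; points are the fitted difference, bars its standard error, filled points have adjusted p under 0.05. In untreated cells the lysyl oxidases Lox, Loxl1 and Loxl2 lie left of 0 and all hydroxylases right of it. With TGFB1 in spheroids Plod1 and P4ha1 (filled) and Loxl2, Loxl3 and P4ha2 (not filled) lie left of 0, while Lox reaches 3.92.

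The partners of these enzymes were followed through lists of pathway genes. Of all genes, 16.9% were called with TGFB1 in monolayers, 35.6% with TGFB1 in spheroids and 55.2% in untreated spheroids. Of 16 other collagen-modifying enzymes and chaperones 14 were tested: 9 rose and 0 fell with TGFB1 in monolayers (median log2 fold change 0.51, against 0.01 for all genes), 5 rose and 2 fell with TGFB1 in spheroids (0.27 against 0.00), and 6 rose and 3 fell in untreated spheroids (0.23 against 0.01). P3h1, a prolyl 3-hydroxylase, averaged 20.6 scaled TPM in untreated and 43.8 in TGFB1 monolayers (1.05 ± 0.10, adjusted p = 0.000169, limma). Fkbp10, a chaperone needed for telopeptide lysine hydroxylation, averaged 164 and 304 in the same groups (0.87 ± 0.15, adjusted p = 0.00323) and fell to 89.0 in untreated spheroids (-0.88 ± 0.15, adjusted p = 0.000473). Serpinh1, the collagen chaperone HSP47, averaged 1075 in untreated monolayers and 416 in untreated spheroids (-1.37 ± 0.11, adjusted p = 3.51e-06). This was opposite to the hydroxylases and to the 6 genes of this list that rose there. For P4hb, the partner of P4ha1 and P4ha2 in the enzyme, the difference between the TGFB1 responses was -0.90 ± 0.14 (adjusted p = 0.00241), of the same sign as that of P4ha1.

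Of 15 procollagen-processing and lysyl oxidase helper genes 9 were tested, and 2 rose and 6 fell in untreated spheroids (median -0.73). In that comparison 27.6% of all genes were called higher and 27.7% lower. Bmp1, the protease that activates pro-lysyl oxidase and cleaves procollagen, averaged 44.5 scaled TPM in untreated and 125 in TGFB1 monolayers (1.46 ± 0.16, adjusted p = 0.00036, limma) and 96.1 and 295 in the spheroid groups (1.59 ± 0.16, adjusted p = 6.44e-05). Fn1, a fibronectin that binds Lox and Bmp1, averaged 415 in untreated and 6889.7 in TGFB1 spheroids (4.02 ± 0.22, adjusted p = 6.14e-07). Fbln5, an elastic fibre protein that binds Loxl1, averaged 307 in untreated monolayers and 9.80 in untreated spheroids (-4.99 ± 0.31, adjusted p = 4.65e-07), and 1013 and 2.67 with TGFB1. Loxl1 itself had the same order in the culture comparison.

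The collagen and elastin substrates were mixed. Of 11 tested, 3 rose and 2 fell with TGFB1 in monolayers, 3 rose and 5 fell with TGFB1 in spheroids, and 2 rose and 4 fell in untreated spheroids. The shares of all genes called in these comparisons were 16.9%, 35.6% and 55.2%. Col5a1, a chain of fibrillar collagen V, averaged 6.98 scaled TPM in untreated and 31.1 in TGFB1 monolayers (1.96 ± 0.24, adjusted p = 0.000549, limma), and 5.75 and 58.4 in untreated and TGFB1 spheroids (3.14 ± 0.24, adjusted p = 7.35e-06). Col1a1, of collagen I, averaged 0.673 in untreated and 7.27 in TGFB1 spheroids (2.30 ± 0.18, adjusted p = 1.07e-05, limma). On this scale its response there was smaller than in monolayers (-2.04 ± 0.26, adjusted p = 0.000732). The untreated spheroid mean is below the added 1, which understates the spheroid response, so the size of this difference depends on the scale. Col4a1, of basement membrane collagen IV, averaged 2233 in TGFB1 monolayers and 495 in TGFB1 spheroids (-2.17 ± 0.19, adjusted p = 4.16e-06), the groups between which Loxl2 also fell.

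Hypoxia response genes rose with spheroid culture: 14 of 17 tested rose and 1 fell in untreated spheroids (median 1.40 against 0.01 for all genes), and 11 rose and 0 fell with TGFB1 in both cultures (1.24 against 0.00). With TGFB1 in spheroids 5 of them rose and 8 fell. Among all genes 55.2%, 51.9% and 35.6% were called in these comparisons, in the same order. Ero1l, an oxidase that supports disulphide formation in the endoplasmic reticulum, averaged 63.4 scaled TPM in untreated monolayers, 943 in untreated spheroids and 235 in TGFB1 spheroids; its fall with TGFB1 in spheroids was -2.30 ± 0.49 (adjusted p = 0.00427, limma). Pdk1 and Bnip3 also fell there (-1.47 ± 0.23, adjusted p = 0.000752, and -1.38 ± 0.22, adjusted p = 0.000996), while Egln3, an oxygen-sensing prolyl hydroxylase, rose (2.23 ± 0.23, adjusted p = 5.63e-05). The members named above as targets of hypoxia-inducible factors differed in that comparison. P4ha1 fell (-0.72), Lox rose (3.92), and Plod2 (0.24) and P4ha2 (-0.03) did not pass. In untreated spheroids Lox fell (-1.82), whereas P4ha1, P4ha2 and Plod2 rose. A part of hypoxia in the member values was not tested.

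Of 9 TGF-beta target genes tested, 4 rose and 0 fell with TGFB1 in monolayers (median 0.59) and 3 rose and 1 fell in spheroids (0.65). There 16.9% and 35.6% of all genes were called. Pmepa1, a feedback inhibitor of the pathway, rose in both (1.75 ± 0.23, adjusted p = 0.000754, and 3.46 ± 0.23, adjusted p = 2.2e-06, limma), and its response was larger in spheroids (1.71 ± 0.32, adjusted p = 0.00527). Of 7 genes that supply vitamin C, copper, iron or oxoglutarate, 4 rose and 1 fell in untreated spheroids, where 55.2% of all genes were called. Slc23a2, a vitamin C transporter, averaged 7.96 scaled TPM in untreated monolayers, 54.0 in untreated spheroids (2.59 ± 0.25, adjusted p = 1.03e-05) and 178 in TGFB1 spheroids. Tfrc, the transferrin receptor for iron uptake, fell from 125 to 37.0 between the untreated groups (-1.74 ± 0.29, adjusted p = 0.000462).

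Genes whose profile over the 12 monolayer and spheroid libraries was most like a member's were ranked by Pearson's r on the log2 scale, as a description over points that share groups and a table. The nearest gene was Arl2 for Lox (r = 0.981), Eif5a2 for Loxl1 (0.993), Fmn1 for Loxl2 (0.974) and Tusc3 for Loxl3 (0.934). It was Pcdhb5 for Plod1 (0.980), Ptgs2 for Plod2 (0.973), Nox4 for Plod3 (0.970), Klra1 for P4ha1 (0.967) and Fmnl2 for P4ha2 (0.989). Among the members themselves the highest r was between Plod2 and Plod3 (0.93).

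Snail overexpression was visible in its own transcript: Snai1 was at 13.7, 10.1 and 9.81 scaled TPM with the WPI vector and at 234, 195 and 193 with Snail. Against this, 0 of 9 tested members passed in limma and 1 had an unadjusted p under 0.05, where 1.72% of 12240 genes were called (0.572% higher, 1.14% lower). Groups did not overlap for 2 members, P4ha2 and Plod2 (20.6% of genes did not overlap). P4ha2 was at 6.87, 4.33 and 6.12 scaled TPM with the vector and at 10.6, 10.4 and 7.30 with Snail, a log2 fold change of 0.63 ± 0.19 (adjusted p = 0.169); the authors' deposited table gave 0.72 on the log2 scale with a q-value of 0.110. Plod2 was at 118, 114 and 125 and then at 110.4, 111 and 106 (-0.12 ± 0.05, adjusted p = 0.340).

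Lox was at 183, 149 and 155 scaled TPM with the vector and at 199, 187 and 153 with Snail, and the groups overlapped. Loxl1 was at 42.5, 38.8 and 51.0 and at 39.8, 38.9 and 28.8 (-0.30 ± 0.14, adjusted p = 0.403, limma). The other members overlapped too: over all 6 libraries Loxl2 ranged from 106 to 133, Loxl3 from 14.0 to 18.6, Plod1 from 12.1 to 14.8, Plod3 from 79.0 to 99.3 and P4ha1 from 173 to 195. Loxl4 stayed between 0.036 and 0.112 scaled TPM. Log2 fold changes of the 9 tested members ran from -0.30 to 0.63 (median 0.02, against 0.01 for all genes). The share of all genes called with Snail was 1.72%. In the other lists 0 of 13 tested collagen-modifying genes passed, 1 of 9 helper genes rose (Adamts2, a procollagen protease, 0.84 ± 0.15, adjusted p = 0.0394) and 2 of 10 substrates rose, Col6a1 and Col6a2 of collagen VI (1.19 ± 0.22, adjusted p = 0.0477, and 1.75 ± 0.24, adjusted p = 0.0192). The summed surface epithelial markers were 2161 to 2416 with the vector and 2014 to 2295 with Snail.

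In the BRCA1 experiment the level of Brca1 did not separate the groups. It was at 5.34, 11.1 and 4.09 scaled TPM in libraries labelled BRCA1_ko and at 4.27, 12.3 and 3.66 in those labelled BRCA1_wt. The value covers the whole gene, so transcripts that have lost floxed exons would still count. Why the groups did not separate was not tested. Directions below are therefore between libraries as labelled. The labelled groups also differed in markers of other cells: 4 granulosa markers summed to 128 to 224 scaled TPM in BRCA1_ko and 46.3 to 50.1 in BRCA1_wt, and 6 fibroblast markers to 753 to 913 and 343 to 621. The summed surface epithelial markers were 3043 to 3144 and 3044 to 3362. The part of these markers in the enzyme values was not tested.

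Of 9 tested members 1, Plod1, was called, higher in libraries labelled BRCA1_ko, where 14.3% of 12775 genes were called (9.04% higher, 5.27% lower). Plod1 was at 29.2, 28.6 and 37.1 scaled TPM in BRCA1_ko and at 7.75, 16.0 and 5.38 in BRCA1_wt, with no overlap. Its log2 fold change was 1.72 ± 0.38 (adjusted p = 0.0328, limma), against a median of 0.17 for all genes. The authors' deposited table gave 1.50 on the log2 scale with a q-value of 0.000542. Its share of the 3 Plod genes was 13.3% ± 1.24 in BRCA1_ko and 6.88% ± 0.99 in BRCA1_wt (SD, n = 3), with no overlap. The call was lost without BRCA1_ko 1, 2 or 3 (adjusted p = 0.164, 0.1 and 0.158) and without BRCA1_wt 1 or 3 (0.153 and 0.0719), and held without BRCA1_wt 2 (2.12, adjusted p = 0.000312). It was also lost with the replicate number as a block (0.0908), at equal library sums (2.19, 0.0711) and with no filter on low values (0.0656).

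Leaving out the library labelled BRCA1_wt 2 changed the call of 4 other members, Plod2, Loxl2, P4ha2 and P4ha1. Plod2 was at 136, 115 and 155 scaled TPM in BRCA1_ko and at 43.2, 118 and 33.7 in BRCA1_wt, where only BRCA1_wt 2 reached the BRCA1_ko range. Its log2 fold change was 1.26 ± 0.45 (adjusted p = 0.0868, limma) with that library and 1.79 (adjusted p = 0.000381) without it. Loxl2 was at 119, 116.1 and 126 in BRCA1_ko and at 58.1, 115.9 and 33.1 in BRCA1_wt, and its log2 fold change was 0.98 ± 0.43 (adjusted p = 0.127) with and 1.44 (adjusted p = 0.00178) without it. P4ha2, at 40.9, 40.3 and 30.9 against 16.1, 34.8 and 17.3, went from 0.77 (adjusted p = 0.123) to 1.11 (adjusted p = 0.00172). P4ha1, at 64.6, 55.7 and 74.3 against 42.5, 57.7 and 31.6, went from 0.58 (adjusted p = 0.145) to 0.80 (adjusted p = 0.0103). Without BRCA1_wt 2, 5 of 9 members were called, against 66.2% of all genes tested (8295 of 12535), so this count is not particular to the members.

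Lox varied widely within both labelled groups of this experiment. It was at 74.8, 48.4 and 93.3 scaled TPM in BRCA1_ko and at 75.0, 173 and 44.9 in BRCA1_wt (-0.26, adjusted p = 0.700, limma), with the highest value in BRCA1_wt 2; without that library the change turned to 0.26 (adjusted p = 0.502). Loxl1 was at 139, 123 and 136 in BRCA1_ko and at 159, 159 and 147 in BRCA1_wt, which did not overlap (-0.22, adjusted p = 0.396). Loxl3 (9.31 to 10.5 and 9.24 to 13.2) and Plod3 (51.3 to 92.0 and 53.7 to 73.1) overlapped. With every library scaled to the same sum, the log2 fold changes of Lox, Loxl1 and Loxl3 turned to 0.27, 0.31 and 0.31, where the median of all genes was 0.63. Loxl4 was at 0.108, 0.0899 and 0.476 in BRCA1_ko and at 0.0139, 0.130 and 0.116 in BRCA1_wt. Groups did not overlap for 3 of the 9 tested members, Plod1, Loxl1 and Loxl2, against 44.9% of genes. Of 15 tested collagen-modifying genes 2 rose, Colgalt2, a collagen galactosyltransferase (3.37 ± 0.26, adjusted p = 0.00146), and the chaperone Fkbp14 (2.37 ± 0.48, adjusted p = 0.0263). Of 7 cofactor supply genes 2 rose, Slc23a2 (1.42 ± 0.32, adjusted p = 0.0358) and Idh1, which makes oxoglutarate (1.28 ± 0.25, adjusted p = 0.0218). For both lists the share of all genes called was 14.3% (9.04% higher, 5.27% lower).

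**Figure D4:**
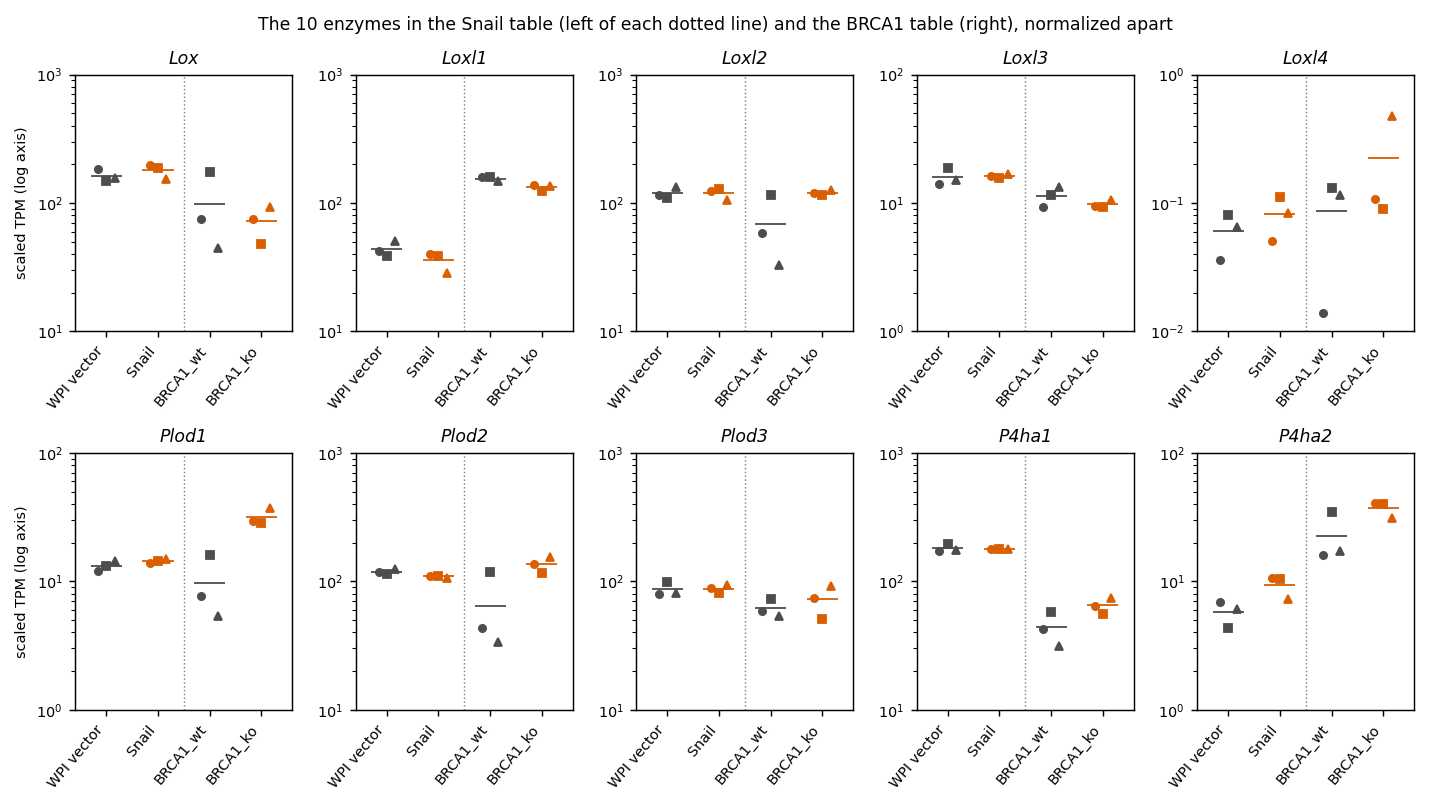
Scaled TPM of the 10 enzymes (log axis, range set per gene) with WPI vector or Snail, left of the dotted line, and in libraries labelled BRCA1_wt or BRCA1_ko, right of it; points are libraries, lines the mean of 3. The 2 tables were normalized separately, so levels are comparable only on the same side of the line; Plod1 is the only enzyme called there, and BRCA1_wt 2 (square) lies near BRCA1_ko for Plod2, Loxl2, P4ha1 and P4ha2.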

How the data were processed

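Poly(A) RNA-seq libraries of cultured mouse cells were quantified by the authors with kallisto 0.44.0 and sleuth 0.30.0 on GRCm38, per the submitters' processing notes. The deposited gene values are TPM, here a signal that the authors rescaled by a factor per library (library sums differ), called scaled TPM. The deposited comparison tables hold natural log coefficients, converted here to log2, and q-values; for monolayers and spheroids each q-value covers 3 terms at once. Values were tested as deposited on log2(scaled TPM + 1), with genes of at least 1 in at least 3 libraries, by limma 3.58.1 in R 4.3.3 (lmFit, eBayes with trend, two-sided), with all 12 libraries of the first table in one fit and 6 in each other fit. P-values were adjusted by Benjamini-Hochberg over all genes of a table. The fitting code was checked on simulated libraries with independent noise, which cannot show whether the libraries used here are independent. Tables were fitted separately because they were normalized separately. Groups follow the labels. The design assumed TPM, and the test was kept for scaled TPM. The members and gene lists were chosen with earlier results of these data known. From each list the text names, per comparison, up to 4 called genes with the largest change. Motifs were searched in RefSeq windows and coordinates come from GENCODE M21. Alternatives were the pseudocount, the filter, equal library sums, library quality weights, a replicate block, 6-library fits and leaving out each library.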

Additional observations from a re-analysis of the deposited data

Results flagged for a closer look

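The TGFB1 response of Plod1 differed between spheroids and monolayers. Plod1 rose with TGFB1 in monolayers and fell in spheroids, and the difference was -1.66 on the log2 scale (adjusted p = 0.00334, limma interaction term). The call of the rise alone was lost in most fits without 1 library. That of the fall alone was lost in a fit of the 6 spheroid libraries (adjusted p = 0.0509, limma). The timing of TGFB1 may differ between these cultures too, and it cannot be told apart from culture form. P4ha1 was flagged by the same test, with a difference of -0.81 (adjusted p = 0.0287). Unlike the call of this difference for Plod1, that for P4ha1 was lost in most fits without 1 library, and also with no filter on low values.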

How the results depend on the processing

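Of 27 member calls in 63 member tests, 18 were called in every fit without 1 library, 19 under every other setting and 17 in all fits, and 0 of the 27 changed sign in any fit. Of the 36 member values that were not called, 14 changed sign in at least 1 fit. Members called with TGFB1, spheroids against monolayers (7 here), were 4 with no filter on low values and 4 to 6 with 1 library left out. For the difference between TGFB1 responses (2) they were 1 with no filter, 4 at equal library sums, 6 with quality weights and 1 to 5 with 1 library left out. For TGFB1 in monolayers (5) they were 3 to 5 with 1 library left out. For BRCA1 (1) they were 0 with no filter, 0 at equal sums, 7 with weights and 0 to 5 with 1 library left out. Genes called for TGFB1 in monolayers (2284) were 6431 with weights, 3771 with only the 6 libraries compared and 1220 to 1715 with 1 left out. For TGFB1 in spheroids (4810) they were 2787 with 6 libraries and 3095 to 4816 with 1 left out, and for the difference between responses (2138) they were 4385 with weights and 1307 to 2658. For Snail (210) they were 54 with no filter and 23 to 74 with 1 left out. For BRCA1 (1828) they were 1091 with no filter, 1050 with a filter of at least 5, 878 at equal sums, 11536 with weights and 57 to 8295 with 1 left out, the highest without BRCA1_wt 2. The cause was not tested.

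Equal library sums moved the median of all genes to -0.16 for TGFB1 in spheroids, -0.15 for spheroids against monolayers with TGFB1, -0.21 for the difference between responses and 0.63 for BRCA1. The share of higher calls moved from 52.9% to 29.8%, 48.9% to 33.1%, 55.1% to 27.6% and 63.2% to 80.3%. Relative to these medians Plod1 was at 1.56 for BRCA1 (1.55 as deposited) and at -1.67 for the difference between responses (-1.65).

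Whether replicate numbers pair the samples could not be decided, because deviations from a mean of 3 libraries are tied to each other. Deviations of same-numbered libraries correlated between -0.320 and 0.186 for monolayers and spheroids, -0.0783 to 0.331 for Snail and -0.167 to -0.0534 for BRCA1. Those of differently numbered libraries ranged from -0.307 to 0.368, -0.214 to 0.254 and -0.188 to 0.209. With the replicate block 16 genes were called for Snail and 433 for BRCA1, and 0 members for BRCA1. Read depth is unknown and limits low genes such as Loxl4.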
